A study of Homo sapiens with 24 samples.

Results

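The genes for the proteins of the cytosolic ribosome were followed across 2 human cancer cell lines, their neratinib-resistant derivatives and 24 h of drug. Members were chosen by gene symbol (RPL or RPS with a number, RPLP0 to RPLP2, and RPSA) among the rows of the count table on chromosomes 1 to 22 and X, with the row of highest mean count kept for each symbol. This gave 87 of 39786 rows. Of these, 34 have small-subunit and 53 large-subunit symbols, and 10 are paralog-type genes (symbols such as RPL22L1, RPL39L or RPS27L) rather than the standard copy. The symbol rule alone, without the chromosome rule, matched 100 rows, and the other 13 lay on patch sequences of the genome build.

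The cytosolic ribosome has a small subunit, which reads the messenger RNA, and a large subunit, which joins amino acids. Its proteins are made in matched amounts from single-copy genes scattered over the chromosomes. Their messenger RNAs typically begin with a run of pyrimidines, the 5′ terminal oligopyrimidine (TOP) tract, through which mTORC1 controls their translation and, through LARP1, their stability. Neratinib irreversibly inhibits the EGFR, ERBB2 and ERBB4 kinases, which feed into mTORC1.

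5637 is a line of bladder cancer cells, and OVCAR8 one of ovarian cancer cells. The 8 groups, of 3 libraries each, were 5637 NR with neratinib, 5637 NR control, 5637 parental with neratinib, 5637 parental control, and the same 4 in OVCAR8. NR denotes the neratinib-resistant derivative of a line, which had been off the drug for 1 week when it was seeded. Neratinib was given for 24 h at 600 nM in 5637 and at 1 µM in OVCAR8, so the lines differ in dose as well as in origin. The labels name a single NR derivative per line and do not say whether it was a clone or a pool. Dishes were seeded in triplicate, and nothing says that they came from separate cultures, so p-values measure the spread between these libraries, which may be technical.

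Library totals were 23.8 to 48.5 when counted in units of 1e+06 counts. Of 8 bladder markers, KRT5 and TP63 were at 59.2 to 4384 CPM (counts scaled to a common library total) in 5637 and at 0 to 0.779 CPM in OVCAR8. GATA3, PPARG and EPCAM had medians of 57.3 to 207 CPM in 5637 and were still present in OVCAR8, with medians of 7.92 to 19.4 CPM. The uroplakins UPK1B, UPK2 and UPK3A were low in 5637 itself, at 0 to 8.41 CPM, and at most 0.151 CPM in OVCAR8. Of 6 ovarian markers, PAX8 and MSLN were at 69.2 to 406 CPM in OVCAR8 and at 0.137 to 47.8 CPM in 5637. SOX17 and EMX2 were at or near 0 in both lines. MUC16 and WT1 went against the labels, with MUC16 at 78.1 to 391 CPM in 5637 and at most 0.220 CPM in OVCAR8, and WT1 at 1.67 to 32.6 CPM in 5637 and 0.882 to 4.32 CPM in OVCAR8. The 6 markers of stroma, endothelium and blood cells reached at most 1.19 CPM. OVCAR8 parental control replicate 2 stood apart. Long genes (over 8 kb) took up 14.1% of its counts, where its line otherwise ranged from 20.4% to 21.2%. Short genes (under 1 kb) took up 2.07%, where the line otherwise ranged from 1.16% to 1.30%. Ribosomal protein genes made up 8.80% of it, against 4.96% to 6.50% in the other 11 libraries. It was therefore left out, OVCAR8 parental control has n = 2, and counts of members called in OVCAR8 fits are also given with it in the fit.

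The start regions of a few members are shown because the TOP tract is the sequence feature these genes are known for. Each line is the 30 bases from 10 before to 20 from the annotated transcript start in RefSeq (GRCh38.p14), 5′ to 3′ on the gene's strand, with the longest run of C and T in capitals. RPS6 (chr9:19380217-19380246, minus strand), RPLP0 (chr12:120201092-120201121, minus), RPL13A (chr19:49487598-49487627, plus), RPL4 (chr15:66504836-66504865, minus) and RPL12 (chr9:127451387-127451416, minus) are standard members, and RPL22L1 (chr3:170870176-170870205, minus), RPS27L (chr15:63157458-63157487, minus) and RPL7L1 (chr6:42879606-42879635, plus) are paralog-type.
RPS6: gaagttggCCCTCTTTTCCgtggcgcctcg
RPLP0: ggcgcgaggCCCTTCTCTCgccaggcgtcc
RPL13A: aaaCCTCCTCCTTTTCCaagcggctgccga
RPL4: cgggagtggtaagcaCTTCCTTTTCCTgtg
RPL12: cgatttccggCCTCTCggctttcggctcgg
RPL22L1: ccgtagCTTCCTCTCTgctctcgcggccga
RPS27L: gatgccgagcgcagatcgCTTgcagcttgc
RPL7L1: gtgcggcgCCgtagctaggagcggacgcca

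The 5 standard genes carry pyrimidine runs of 6 to 14 bases, and so does RPL22L1 with 10. RPS27L and RPL7L1 have longest runs of 3 and 2 bases. Start regions were found for 67 of the 87 members. A C at the annotated start followed by 4 more C or T, read on the gene's strand only, stood at 43 of the 67 (64.2%), against 4.04% of all 27305 start regions in the table. Allowing the start to be off by up to 5 bases, the shares were 76.1% and 21.1%. The letters CTTTC stood in 41.8% of the members' windows, against 4.07% of all, and on the opposite strand (GAAAG) in 1.49% against 3.16%. Among the 5 paralog-type members with a start region, 1 had the tract.

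Of the 87 members, 71 averaged at least 1000 counts per library. Another 8 averaged below 3 counts, among them RPL10L, RPL36A, RPL7A and RPS9. These 8 did not pass the filter on low counts in either line, and 78 members were tested in each line. RPL39L was not tested in 5637 and RPL10 was not tested in OVCAR8. RPL7A, RPS18, RPS19, RPS25 and RPS9 also had rows on patch sequences. Another 522 rows named as pseudogenes of ribosomal proteins held 0.0322% to 0.151% of a library. How reads were shared between such near-identical copies is not given in the sources used here, so levels of single members, above all of those near 0, are uncertain.

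RPL10, which joins the large subunit last and is needed before it can pair with the small subunit, was counted on different rows in the 2 lines. Its row on chromosome X (ENSG00000147403.12, hg19 153618315 to 153637504) held 34.2 to 101 CPM in 5637 and 0 to 0.0848 CPM in OVCAR8. Its patch row held 0 to 0.324 CPM in 5637 and 103 to 219 CPM in OVCAR8. No change of RPL10 between the lines is therefore read from the member row.

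Ribosomal protein genes took a share of counts that differed between states of 5637 more than between its treatments. They made up 3.79% ± 0.113 of counts in 5637 NR cells with neratinib and 3.62% ± 0.107 in NR control. In parental 5637 cells they made up 6.08% ± 0.125 with neratinib and 5.09% ± 0.0436 in control (SD, n = 3 each). In OVCAR8 the shares were 5.59% ± 0.0719 in NR cells with neratinib, 5.45% ± 0.146 in NR control, 6.45% ± 0.0667 in parental cells with neratinib (n = 3 each) and 5.09% ± 0.194 in parental control (n = 2). Large-subunit genes held 2.45% to 4.31% and small-subunit genes 1.17% to 2.14% of counts as group means. The share was lowest in all 6 libraries of 5637 NR, and in both lines the parental libraries with neratinib lay above the controls used. The omitted OVCAR8 parental control replicate 2, at 8.80%, lay above the OVCAR8 parental libraries with neratinib.

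**Figure D1:**
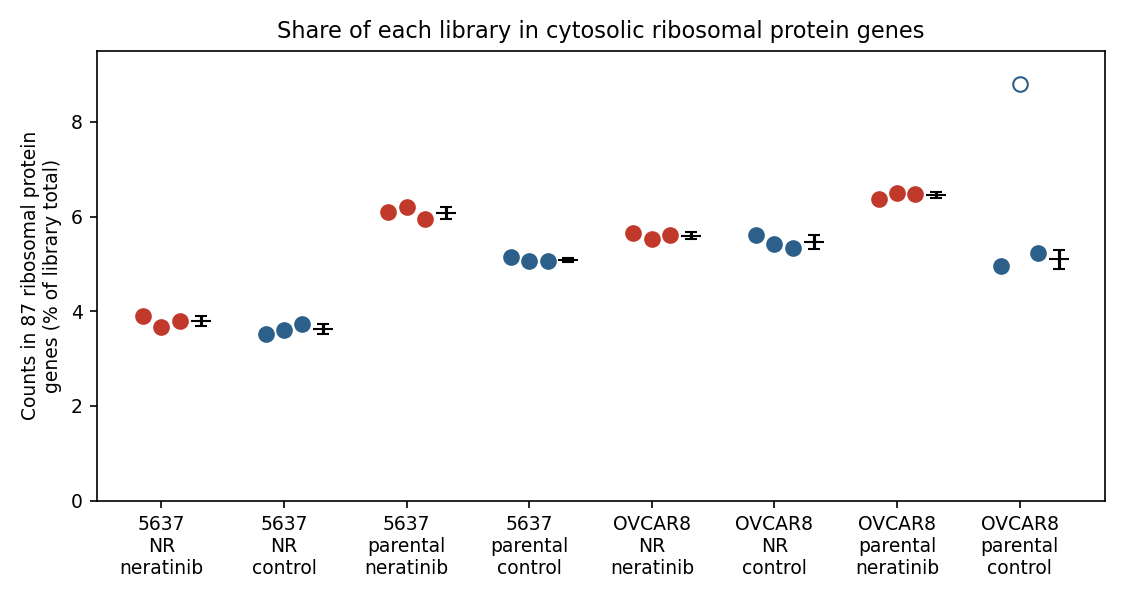
Share of each library's counts in the 87 ribosomal protein genes, by group. Points are libraries, horizontal marks with bars are means ± SD, and the open point is OVCAR8 parental control replicate 2 at 8.80%, which is not in the mean. The 6 libraries of 5637 NR lie lowest.

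Which member had the highest level per length differed between the lines. The order rests on the deposited gene lengths, which had a median of 2847 bases over members and reached 8153 bases for RPL37. Members whose rows held almost no counts, such as RPL7A and RPS9, have no reliable rank. On a per-length scale (TPM, from the gene length in the table), RPL32 had the highest level of all members in every 5637 group, at 2280 ± 108 in NR with neratinib, 2085 ± 60.5 in NR control, 4183 ± 99.5 in parental with neratinib and 3399 ± 102 in parental control (SD, n = 3 each). RPL8, a protein close to the catalytic centre of the large subunit, led every OVCAR8 group, at 4904 ± 318 TPM in NR with neratinib, 5320 ± 351 in NR control, 6773 ± 162 in parental with neratinib (n = 3 each) and 5286 ± 109 in parental control (n = 2). RPS2, a small-subunit protein near the messenger RNA entry, was next in OVCAR8 and did not overlap RPL8 there, at 3809 ± 199, 4190 ± 321, 5023 ± 90.0 and 3988 ± 117 TPM in the same groups.

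In parental 5637 cells given neratinib many ribosomal protein genes took a larger share of the counts, by small amounts. The libraries measure shares of messenger RNA, so more of one RNA and less of the others cannot be told apart, nor can fewer cells and less RNA per cell. Of 78 members tested, 29 (37.2%) were higher and 5 (6.41%) were lower in edgeR's quasi-likelihood test with adjusted p under 0.05. Over all 18307 genes 23.9% were higher and 23.5% were lower. The median log2 fold change was 0.11 over the members and 0.02 over all genes. When libraries were scaled by their totals alone, the median of all genes became 0.13, and 48 members were higher and 4 lower. Of the 18307 genes 5763 were then higher and 3212 lower. The members' median lay 0.09 above that of all genes under both scalings. Genes under 1 kb held 1.31% to 1.37% of counts with neratinib and 1.22% to 1.25% in control, with no overlap, and their part was not tested. Among the small-subunit genes 11 of 26 were higher and 1 lower, among the large-subunit genes 18 of 44 and 1, and among the paralog-type genes 0 of 8 and 3.

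RPS6, the small-subunit protein that S6 kinase phosphorylates below mTORC1 (ENSG00000137154.8, hg19 chromosome 9, 19375713 to 19380252), had 2309, 2354 and 2353 CPM in parental 5637 with neratinib, against 1852, 1821 and 1847 CPM in control. The groups did not overlap. Its fitted log2 fold change was 0.24 ± 0.05 (SE, edgeR adjusted p = 0.000497), which is smaller than the ratio of CPM because the fit also scales libraries by TMM factors. RPS27, a zinc-finger protein of the small subunit, had 625, 678 and 626 CPM with neratinib and 492, 487 and 490 CPM in control (log2 0.29). RPS10, a small-subunit protein that is marked with ubiquitin when ribosomes collide, went the other way, with 24.4, 24.1 and 24.5 CPM with neratinib and 31.2, 26.4 and 28.2 CPM in control (log2 -0.34, edgeR adjusted p = 0.00305).

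The largest fitted rise was that of RPL13A, a large-subunit protein known also to silence messenger RNAs of inflammation when it leaves the ribosome (hg19 chromosome 19, 49990811 to 49995565). It had 2069, 2183 and 2048 CPM with neratinib, against 1367, 1354 and 1412 CPM in control, without overlap (log2 0.50 ± 0.06, edgeR adjusted p = 6.95e-06). RPL28, another large-subunit protein, had 1424, 1504 and 1363 CPM with neratinib and 946, 943 and 982 CPM in control (log2 0.47). The member row of RPL10 lay between them, at 87.5 to 101 CPM with neratinib and at most 67.3 CPM in control (log2 0.49). RPLP0, the base of the stalk that recruits translation factors, had 2531, 2514 and 2480 CPM with neratinib and 1802, 1825 and 1796 CPM in control (log2 0.37 ± 0.06, edgeR adjusted p = 7.29e-05). All 3 separated from their controls without overlap. RPL5 and RPL11, which with the 5S ribosomal RNA bind MDM2 when ribosome assembly is disturbed, stood at log2 0.17 (edgeR adjusted p = 0.00716) and 0.09 (edgeR adjusted p = 0.147).

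The paralog-type genes that fell were RPL7L1, RPL26L1 and RPL22L1. RPL7L1, a relative of RPL7, had 97.0, 98.6 and 98.4 CPM with neratinib and 133, 126 and 126 CPM in control (log2 -0.50 ± 0.05, edgeR adjusted p = 1.53e-06). RPL26L1, a near copy of RPL26, had 27.1, 28.4 and 25.5 CPM with neratinib and 34.5, 34.1 and 35.0 CPM in control (log2 -0.46). RPL22L1, which can stand in for RPL22, had 5.54, 4.19 and 5.93 CPM with neratinib and 6.87, 8.56 and 7.11 CPM in control (log2 -0.63). None of the 3 overlapped its control. RPL22, the standard copy, stood at log2 0.11 (edgeR adjusted p = 0.263), and RPS27L, a relative of RPS27 that p53 induces, at 0.01 (edgeR adjusted p = 0.917).

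In parental OVCAR8 cells the rise with neratinib took in most of the ribosomal protein genes. Of 78 members tested, 64 (82.1%) were higher and 4 (5.13%) lower, where 24.3% of all 18537 genes were higher and 24.9% lower (49.2% called). The median log2 fold change was 0.25 over members and 0.00 over all genes. Small-subunit genes were higher in 24 of 26 cases and lower in 1, large-subunit genes higher in 38 of 43 and lower in 1, and paralog-type genes higher in 2 of 9 and lower in 2. These counts rest on leaving out control replicate 2: with it, 0 members were higher and 4 lower in edgeR's test (5 at an unadjusted p under 0.05), where 16.2% and 16.3% of all genes were, and the median was -0.14. The 4 that were lower with it were 1 small-subunit, 1 large-subunit and 2 paralog-type genes. That library was higher than its 2 group mates for most members, as the open points in the plot of levels per library show, and genes under 1 kb held 2.07% of it against 1.23% and 1.25% in those 2. In the libraries with neratinib that share was 1.26% to 1.30%, and the part of gene length in the result was not tested.

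RPL13A again had the largest rise among members with at least 10 CPM, with 2138, 2199 and 2199 CPM in parental OVCAR8 with neratinib, against 1284 and 1410 CPM in control (log2 0.64 ± 0.04, edgeR adjusted p = 2.39e-11). RPL3, which reaches into the peptidyl transferase centre, had 2185, 2244 and 2216 CPM with neratinib and 1381 and 1496 CPM in control (log2 0.57). RPS27 had 531, 547 and 551 CPM with neratinib and 349 and 370 CPM in control (log2 0.54). In each of these the lowest treated library lay well above the higher control. The omitted control library stood at 2599 CPM for RPL13A, 2224 for RPL3 and 680 for RPS27, above or within the treated range.

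RPS6 had 1538, 1556 and 1606 CPM with neratinib, against 1131 and 1240 CPM in control (log2 0.35 ± 0.04, edgeR adjusted p = 1.64e-07). RPLP0 had 2853, 2924 and 2845 CPM with neratinib and 2176 and 2289 CPM in control (log2 0.31). RPL5 and RPL11 were higher by log2 0.24 and 0.21 (edgeR adjusted p = 9.63e-06 and 0.00131), so in OVCAR8 both proteins of the 5S particle passed the test. A difference in drug effect between the parental lines was not detected for either (edgeR adjusted p = 0.585 for RPL5 and 0.330 for RPL11). RPL22 was higher as well (log2 0.20).

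The 4 that fell were RPL17, RPL26L1, RPL7L1 and RPS26. RPL17, which lines the exit tunnel, had 16.6, 17.2 and 17.7 CPM with neratinib and 19.7 and 22.0 CPM in control (log2 -0.33). RPL26L1 had 52.6, 54.0 and 49.9 CPM with neratinib and 65.5 and 58.3 CPM in control (log2 -0.30), and RPL7L1 had 173, 173 and 174 CPM with neratinib and 204 and 198 CPM in control (log2 -0.26). The groups of these 3 did not overlap. RPL39L, a relative of RPL39 that in mouse is known from the testis, was among the genes that rose, with 17.8, 18.1 and 16.6 CPM with neratinib and 13.9 and 13.6 CPM in control (log2 0.30, edgeR adjusted p = 0.00161).

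The parental responses of both lines come from separate libraries and can be set side by side. Numbers of calls also depend on the spread between libraries of a group, which edgeR put at 8.03% in the 5637 fit and 4.37% in the OVCAR8 fit used. Fold changes were above 0 for 63 of 78 members in 5637 and for 69 of 78 in OVCAR8. Of 77 members tested in both, 28 were higher with neratinib in 5637 and 63 in OVCAR8, and 28 were higher in both, which is 100% of the 5637 list and 44.4% of the OVCAR8 list. With 63 of 77 higher in OVCAR8, most of any list of members would be higher there too. The overlap over all genes was not counted. Of 5 that fell in 5637 and 4 that fell in OVCAR8, RPL7L1 and RPL26L1 fell in both. With OVCAR8 parental control replicate 2 none was higher in OVCAR8, and RPL7L1 and RPL26L1 again fell in both. The drug effect in OVCAR8 minus that in 5637 was tested in a fit of all 23 libraries: 11 of 79 members (13.9%) had a more positive and 1 (1.27%) a more negative effect in OVCAR8, where 9.69% and 8.9% of 20813 genes did. The 79 include the member row of RPL10, which gave no call. RPL10A had the largest called difference among members with at least 10 CPM (log2 0.48 ± 0.06, edgeR adjusted p = 4.13e-06), with an effect of 0.43 in OVCAR8 and -0.06 in 5637 in the fits of each line, and the effect in 5637 did not pass the test (edgeR adjusted p = 0.311). RPL8 followed (difference log2 0.40) and then RPL3 (0.31), and RPL17 had the more negative effect in OVCAR8 (difference log2 -0.38).

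That count of differences moved with single libraries. It was 23 more positive and 1 more negative without 5637 NR neratinib replicate 1, 20 and 0 without OVCAR8 parental control replicate 3 and 4 and 1 without replicate 1 of that group. It was 5 and 1 without 5637 parental control replicate 1, and 7 and 0 without 5637 parental neratinib replicate 3 or either of OVCAR8 parental neratinib replicates 2 and 3. With OVCAR8 parental control replicate 2 it was 0 and 1, where 10.3% of all genes were called. The share of all genes called without a single library is not given, so those swings are not read as particular to the members. For most members, including RPS6 (difference log2 0.10, edgeR adjusted p = 0.272) and RPLP0 (-0.06, edgeR adjusted p = 0.612), a difference between the lines was not detected.

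**Figure D2:**
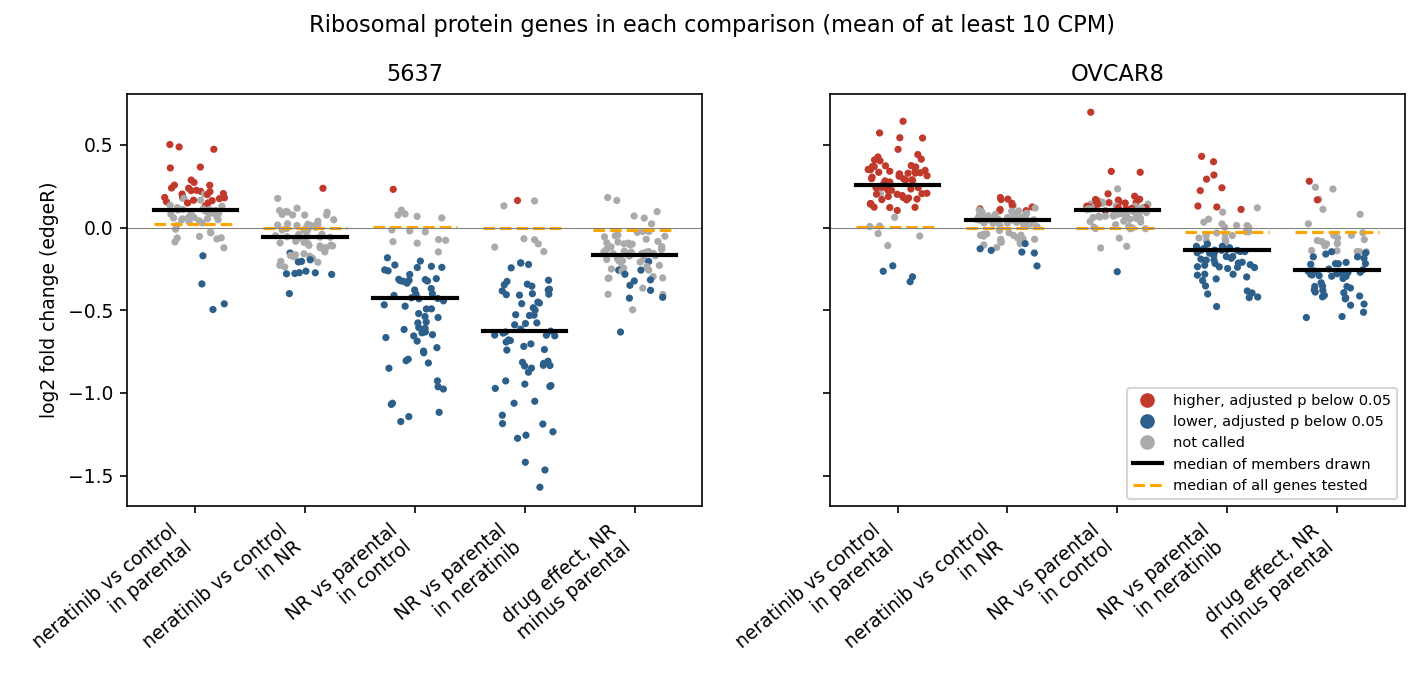
Fold change of each member with a mean of at least 10 CPM in the 5 comparisons of each line, on the log2 scale. Red points were higher and blue points lower at adjusted p under 0.05, black lines are medians of the points drawn, and dashed lines are medians of all genes tested. Members lie mostly above all genes in both parental drug columns and far below them where 5637 NR is set against parental.

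In NR cells of 5637 the same drug moved few ribosomal protein genes, and the sign of the group depended on the scaling. With neratinib 1 of 78 members (1.28%) was higher and 13 (16.7%) lower, against 18.4% and 21.1% of all 18307 genes, with a median of -0.06 over members and -0.00 over all genes. Scaled by library totals alone, the median of all genes was 0.12, 20 members were higher and 2 lower, and the members' median was 0.07. Under that scaling 5016 of the 18307 genes were higher and 2428 lower, so all genes shifted as well. Relative to all genes the members lay 0.06 lower under either scaling. Without NR control replicate 3 the count was 2 higher and 6 lower, without NR neratinib replicate 3 it was 1 and 6, and without NR neratinib replicate 1 it was 2 and 26. Calls over all genes in these 3 fits are not given. Genes under 1 kb held 1.28% to 1.39% of counts in the treated libraries, and the lowest control library stood at 1.13%, with no overlap, and their part was not tested.

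RPS27 was the member that rose, with 498, 457 and 480 CPM in 5637 NR with neratinib and 357, 371 and 388 CPM in NR control (log2 0.24, edgeR adjusted p = 0.00412). RPL7L1 fell, with 105, 117 and 116 CPM with neratinib and 135, 140 and 132 CPM in control (log2 -0.40 ± 0.05, edgeR adjusted p = 2.06e-05). RPL26L1 (log2 -0.28) and RPL22L1 (log2 -0.72) fell as well. For RPS27, RPL7L1 and RPL26L1 the groups did not overlap, and RPL22L1 overlapped in 1 library of each group, with 6.17, 7.76 and 8.46 CPM with neratinib and 11.7, 14.0 and 8.27 CPM in control. All 5 members that fell in parental 5637 cells (RPL22L1, RPL26L1, RPL35, RPL7L1 and RPS10) also fell in NR cells, where they made up 5 of 13. RPL18, a large-subunit protein, fell in NR cells, with 634, 537 and 602 CPM with neratinib and 636, 637 and 690 CPM in control (log2 -0.27). RPS6 stood at log2 0.08 and RPLP0 at -0.06, and neither passed the test (edgeR adjusted p = 0.213 and 0.467).

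The difference between the drug effects of 5637 NR and parental cells was tested as an interaction. It was called for 11 of 78 members, all of them more negative in NR (14.1%, against 6.48% of all genes), and for 0 in the other direction (7.39% of all genes). With no filter on low counts 17 members were called, without NR neratinib replicate 1 there were 31, without NR neratinib replicate 3 there were 7, and without parental neratinib replicate 2 there were 6, in each case all more negative. Calls over all genes in these fits are not given, so the swings are not read as particular to the members. RPL28 had the largest called difference, with a drug effect of log2 -0.16 in NR and 0.47 in parental cells (difference -0.63 ± 0.15, edgeR adjusted p = 0.0125). In NR it had 860, 698 and 719 CPM with neratinib and 774, 641 and 915 CPM in control, which overlap. RPL13A stood at log2 0.07 in NR and 0.50 in parental cells (difference -0.43, edgeR adjusted p = 0.00347), RPLP0 at -0.06 and 0.37 (difference -0.42, edgeR adjusted p = 0.00218), and RPL5 at -0.11 and 0.17 (difference -0.28, edgeR adjusted p = 0.011). RPS27, RPL22L1 and RPL26L1 gave no call (edgeR adjusted p = 0.765, 0.861 and 0.261).

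In OVCAR8 NR cells neratinib raised 10 of 78 members (12.8%) and lowered 6 (7.69%), where 9.39% and 11.9% of all 18537 genes moved. The shares are near those of all genes, and the median was 0.04 over members. Scaled by library totals, 22 were higher and 3 lower, where 2303 of the 18537 genes were higher and 1807 lower. Higher genes then made up 56.0% of all calls in place of 44.1%. Single libraries also turned the balance: 6 higher and 11 lower without NR control replicate 3, 3 and 6 without NR neratinib replicate 1, 4 and 4 without NR control replicate 2, 6 and 2 without NR neratinib replicate 2, 13 and 1 without NR control replicate 1, and 17 and 5 without parental control replicate 3. Calls over all genes in these fits are not given. With parental control replicate 2 in the fit no member was called in edgeR's test (1 at an unadjusted p under 0.05), and 251 of 18072 genes (1.39%) were, 0.642% higher and 0.747% lower.

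RPS6 was higher, with 1391, 1417 and 1369 CPM in OVCAR8 NR with neratinib and 1244, 1260 and 1234 CPM in NR control (log2 0.13, edgeR adjusted p = 0.00916). RPS23, which sits at the decoding centre, and RPL22 rose by log2 0.17 each, and RPS27 by 0.12. RPS27L rose by 0.18, with 24.3, 22.0 and 20.7 CPM with neratinib and 19.6, 19.7 and 18.7 CPM in control. RPS15, a small-subunit protein close to the decoding site, fell, with 501, 455 and 499 CPM with neratinib and 614, 543 and 520 CPM in control (log2 -0.23 ± 0.05, edgeR adjusted p = 0.00191), and RPL7L1 fell by 0.10 on the log2 scale. None of these groups overlapped. RPL18, RPL8, RPS15 and RPL7L1 fell with the drug in NR cells of both lines, 4 of 13 in 5637 and 4 of 6 in OVCAR8, while RPS27 was called higher in NR and parental cells of both lines. With OVCAR8 parental control replicate 2 in the fit none of these was called in OVCAR8 NR, nor RPS27 in parental OVCAR8.

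The OVCAR8 interaction was called for 52 of 78 members, 50 (64.1%) more negative and 2 (2.56%) more positive in NR, against 15.7% and 17% of all genes. RPL13A had a drug effect of log2 0.10 in NR and 0.64 in parental cells (difference -0.54 ± 0.06, edgeR adjusted p = 1.3e-07). RPL13, a large-subunit protein, stood at -0.07 in NR and 0.47 in parental cells (difference -0.54), and RPL28 at -0.07 and 0.44 (difference -0.51). RPS27 had a difference of -0.42, RPL39L of -0.33, RPLP0 of -0.31, RPS6 of -0.22 and RPL5 of -0.19, all on the log2 scale and past the test. The 2 more positive members were RPL26L1 (difference 0.28) and RPL7L1 (0.17), whose fall in parental cells was larger than in NR. With control replicate 2 no member was called in edgeR's test (3 at an unadjusted p under 0.05), where 8.83% of all genes were (4.62% more positive and 4.21% more negative), and the median difference was 0.17 in place of -0.26.

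**Figure D3:**
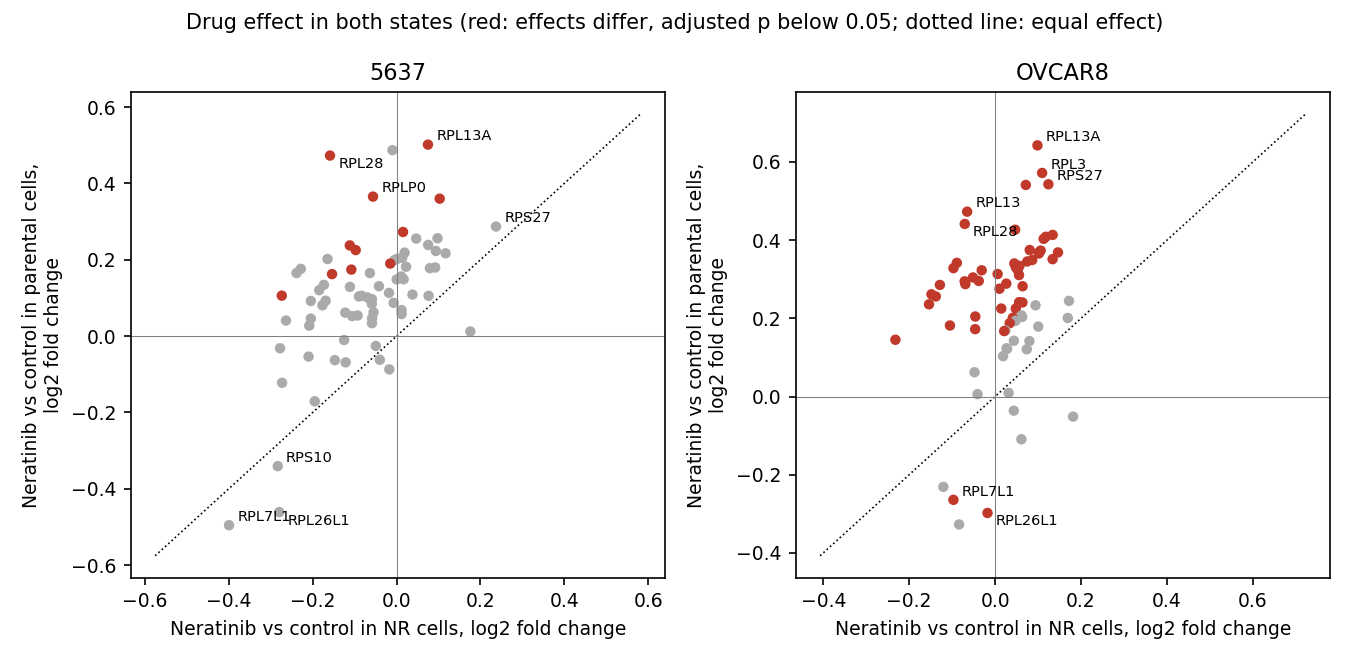
Drug effect of each member with a mean of at least 10 CPM in NR cells (x axis) and in parental cells (y axis), as log2 fold changes of neratinib against control, for 5637 and OVCAR8. Red points have drug effects that differ at adjusted p under 0.05, and points above the dotted line had the more positive effect in parental cells. RPL13A and RPL28 lie far above the line in both lines, and RPL7L1 and RPL26L1 lie below 0 on the y axis in both lines.

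The NR and parental states of 5637 differed widely in these genes. In control libraries NR cells had 59 of 78 members lower (75.6%) and 3 higher (3.85%), where 28% of all 18307 genes were lower and 28.4% higher. The median was -0.42 over members and 0.00 over all genes. Small-subunit genes were lower in 22 of 26 cases and higher in 0, large-subunit genes lower in 36 of 44 and higher in 1, and paralog-type genes lower in 1 of 8 and higher in 2. With neratinib in both states, 67 members were lower (85.9%) and 2 higher (2.56%), where 29.2% and 28.8% of all genes were, with a median of -0.62. The counts under the other scalings are close, at 58 lower and 3 higher in control by library totals, where 4958 of the 18307 genes were lower and 5314 higher. Genes under 1 kb held 1.126% to 1.196% of counts in NR control and 1.22% to 1.25% in parental control, with no overlap, and their part was not tested. With neratinib these shares overlapped, at 1.28% to 1.39% in NR and 1.31% to 1.37% in parental cells.

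RPS15 had the largest called fall among members with at least 10 CPM, with 256, 252 and 304 CPM in 5637 NR control and 610, 584 and 618 CPM in parental control (log2 -1.17 ± 0.11, edgeR adjusted p = 1.43e-07). RPL13A had 609, 633 and 649 CPM in NR control and 1367, 1354 and 1412 CPM in parental control (log2 -1.14 ± 0.06, edgeR adjusted p = 3.28e-10). RPL41, which encodes a peptide so short that it is mostly helix, had 178, 205 and 183 CPM in NR and 424, 395 and 396 CPM in parental control (log2 -1.12). RPL4, which lines the exit tunnel, had 877, 884 and 916 CPM in NR and 1868, 1856 and 1831 CPM in parental control (log2 -1.07). These 4 held less than the parental level in all 3 NR libraries, with wide gaps between the groups.

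RPS6 had 1134, 1196 and 1138 CPM in NR control, against 1852, 1821 and 1847 CPM in parental control (log2 -0.69 ± 0.05, edgeR adjusted p = 4.33e-09). RPLP0 (log2 -0.32), RPL5 (-0.37), RPL11 (-0.31), RPS27 (-0.41), RPL22 (-0.31) and RPS27L (-0.38) were lower too, each past the test. The 3 that were higher were RPL30, RPL22L1 and RPS10L. RPS10L held only 17, 20 and 26 counts in NR control and 7, 13 and 14 counts in parental control. RPL30, a large-subunit protein, had 253, 300 and 270 CPM in NR and 234, 230 and 230 CPM in parental control (log2 0.23, edgeR adjusted p = 0.00551), and RPL22L1 had 11.7, 14.0 and 8.27 CPM in NR and 6.87, 8.56 and 7.11 CPM in parental control (log2 0.57, edgeR adjusted p = 0.00943). RPL30 did not overlap between the groups and RPL22L1 did. RPL26L1 gave no call (log2 -0.02, edgeR adjusted p = 0.818).

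With neratinib in both states the gap of RPL13A was log2 -1.57 (edgeR adjusted p = 9.15e-12), with 779, 677 and 716 CPM in NR and 2069, 2183 and 2048 CPM in parental cells. RPS15 stood at log2 -1.42. Neither member overlapped between the states. RPS6 stood at log2 -0.85, RPLP0 at -0.74 and RPL5 at -0.65. RPL7L1 was higher, with 105, 117 and 116 CPM in NR and 97.0, 98.6 and 98.4 CPM in parental cells (log2 0.16, edgeR adjusted p = 0.0139), along with RPL22L1 (log2 0.48).

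The size of the fall was related in part to chromosome position, a measure that the rule did not use. In 5637 NR control against parental control, the 10 tested members on chromosome 19 had a median of -0.87, the 4 on chromosome 15 of -0.96 and the 4 on chromosome 12 of -0.82, where all genes tested on these chromosomes had medians of -0.34, -0.45 and -0.36. Those on chromosome 15 include RPS17L, which held only 1 to 29 counts in the 5637 libraries. The 4 members on chromosome 8 had a median of 0.02 and the 4 on chromosome 11 of -0.00, where all genes there stood at 0.28 and 0.30. On the other chromosomes with at least 4 tested members, the members' medians ran from -0.55 to -0.26. Those of all genes ran there from -0.10 to 0.10. Among these, chromosome 6 had the smallest fall of members (-0.26) and the lowest median of all genes (-0.10). Neighbours were compared for the 74 members with a mean of at least 100 counts. Their log2 fold change and the median of the other genes within 5 Mb had a Pearson correlation of 0.68 and a Spearman correlation of 0.66. Of the members left out for low counts, RPL3L and RPS10L lay above their neighbours, and RPL12L3 and RPS17L below. With neratinib in both states the Pearson correlation was 0.66. These are descriptions across genes of the same libraries, and members in reach of each other share neighbours. Beside its neighbours a member was still lower in 69 of 74 cases, by a median of 0.43 (member minus neighbours -0.43), and DNA copy number was not measured here.

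Single members show both sides of that relation. RPL13A stood at -1.14 where 262 neighbours had a median of -0.37, RPS15 at -1.17 beside -0.48, RPL41 at -1.12 beside -0.57 and RPL4 at -1.07 beside -0.57. RPL30 on chromosome 8 was higher, at 0.23, in a region whose genes stood at 0.51. RPL8 on chromosome 8 (log2 -0.07 beside -0.55) and RPL18 on chromosome 19 (-0.03 beside -0.37) were among the 5 of those 74 members that lay above their neighbours, and neither passed the test.

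**Figure D4:**
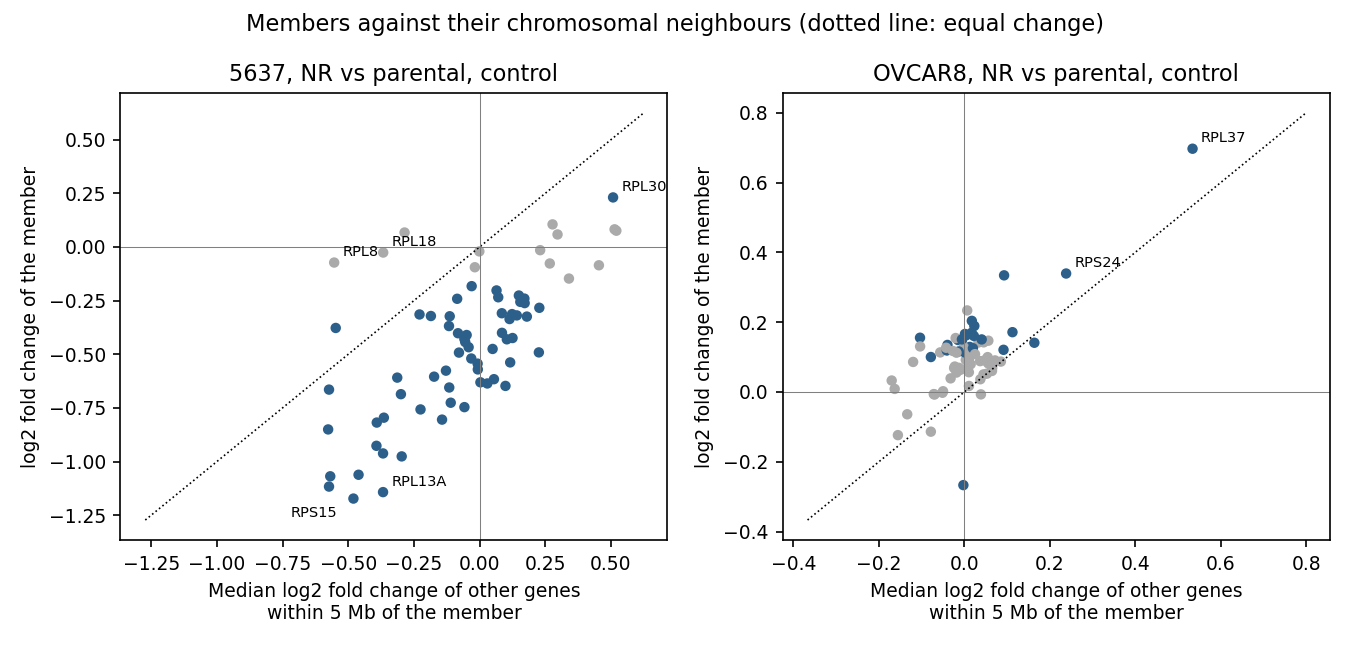
Change of each member with a mean of at least 10 CPM in NR control against parental control (y axis), plotted against the median change of the other genes within 5 Mb (x axis), both as log2 fold changes, for 5637 and OVCAR8. Blue points passed adjusted p under 0.05, and the dotted line marks equal change. In 5637 most points lie below the line, and in OVCAR8 RPL37 lies at the upper right.

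OVCAR8 NR cells did not share the fall of 5637 NR cells in control libraries. Of 78 members 25 (32.1%) were higher and 1 (1.28%) was lower in NR control than in parental control, where 11.4% of all genes were higher and 11.4% lower. The median was 0.10 over members. Of 77 members tested in both lines, 58 were lower in 5637 NR and 24 higher in OVCAR8 NR, and 21 were both, 36.2% of the first list and 87.5% of the second. With 58 of 77 lower in 5637 NR, most of any list of members would be lower there too. The overlap over all genes was not counted. The OVCAR8 count became 42 higher and 1 lower when parental control replicate 3 was left out, and 10 and 0 when replicate 1 was. Calls over all genes in these 2 fits are not given. With parental control replicate 2 no member was called in edgeR's test (5 at an unadjusted p under 0.05), so none was on both lists, where 9.84% of all genes were called (4.94% higher and 4.91% lower), and the median was -0.31. Genes under 1 kb held 1.16% to 1.22% of counts in NR control and 1.23% to 1.25% in the 2 parental control libraries used.

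RPL37, a zinc-binding protein of the large subunit (hg19 chromosome 5, 40825364 to 40835437), had the largest rise. It had 976, 985 and 931 CPM in OVCAR8 NR control, against 592 and 599 CPM in parental control (log2 0.70 ± 0.04, edgeR adjusted p = 9.46e-13). The omitted parental control stood at 1134 CPM. The 56 other genes within 5 Mb of RPL37 had a median of 0.53. With neratinib in both states RPL37 stood at 0.43, with 1049, 1070 and 1042 CPM in NR and 798, 799 and 791 CPM in parental cells, and its neighbours at 0.61. In 5637 RPL37 was lower in NR control, with 725, 688 and 770 CPM against 1001, 1017 and 1020 CPM in parental control.

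RPS24, a small-subunit protein, had 876, 844 and 898 CPM in OVCAR8 NR control and 626 and 753 CPM in parental control (log2 0.34, edgeR adjusted p = 0.000104), with neighbours at 0.24. RPL39L had 18.1, 17.6 and 16.3 CPM in NR and 13.9 and 13.6 CPM in parental control (log2 0.33). RPL26L1 was the member that fell, with 53.3, 51.2 and 49.6 CPM in NR and 65.5 and 58.3 CPM in parental control (log2 -0.27, edgeR adjusted p = 0.00246). None of these overlapped. RPLP0 (log2 0.16) and RPL5 (0.12) were higher, and RPS6 (0.07), RPL11 (0.11), RPS27 (0.02) and RPL22 (-0.01) did not pass the test.

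With neratinib in both states, OVCAR8 NR cells had 46 members lower (59.0%) and 9 higher (11.5%), where 28.7% and 26.8% of all genes were, with a median of -0.14. Of 77 members tested in both lines, 66 were lower in 5637 NR and 46 in OVCAR8 NR. Of these 44 were lower in both, 66.7% of the first list and 95.7% of the second. Another 7 were lower in 5637 NR and higher in OVCAR8 NR. With 66 of 77 lower in 5637 NR, most of any list of members would be lower there too. RPL13 fell furthest, with 1234, 1115 and 1243 CPM in NR and 1669, 1748 and 1675 CPM in parental cells (log2 -0.48), then RPL3 (-0.42), RPL8 (-0.42) and RPS27 (-0.40). RPS6 and RPLP0 stood at -0.14 and -0.15, both past the test. Besides RPL37, RPL17 (log2 0.40) and RPS10 (0.32) were higher, and so was RPL7L1 (0.29). With parental control replicate 2 in the fit the libraries of a group varied more. In edgeR's test 0 members were then lower and 2 higher (4 at an unadjusted p under 0.05). Of all 18072 genes in that fit 2958 were lower and 2638 higher, and the members' median was -0.13. The comparisons of 1 line share libraries with each other, so their values are given side by side and not as separate support.

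The parental controls of the lines differed in most members and in both directions. Of 79 members 31 (39.2%) were higher and 34 (43.0%) lower in OVCAR8 than in 5637, where 36.5% of all 20813 genes were higher and 36.3% lower (72.8% called), so the members' shares lie near those of all genes. The 79 include the member row of RPL10, a gene counted on another row in OVCAR8. The median was -0.08. The balance turned to 33 higher and 30 lower under library totals, 34 and 32 with no filter, 31 and 29 or 32 and 24 when replicate 1 of the 5637 or of the OVCAR8 parental control was left out, and 39 and 8 with OVCAR8 parental control replicate 2, where 72% of all genes were called. Calls over all genes with no filter or without a single library are not given. RPL32, a large-subunit protein, had 955 and 1008 CPM in OVCAR8 and 4291, 4215 and 4196 CPM in 5637 (log2 -2.16 ± 0.06, edgeR adjusted p = 5.91e-22). RPL24, which bridges the subunits, had 198 and 229 CPM in OVCAR8 and 522, 511 and 503 CPM in 5637 (log2 -1.31), and RPS6 stood at -0.68.

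RPL8 had 3634 and 3816 CPM in OVCAR8 and 1220, 1170 and 1185 CPM in 5637 (log2 1.60 ± 0.08, edgeR adjusted p = 4.18e-16). RPS10 had 79.7 and 88.6 CPM in OVCAR8 and 31.2, 26.4 and 28.2 CPM in 5637 (log2 1.51). RPSA, the small-subunit protein also known as the laminin receptor, had 983 and 1039 CPM in OVCAR8 and 496, 500 and 499 CPM in 5637 (log2 0.97). Each of these lay far apart in the lines. RPL5 (log2 0.62), RPL26L1 (0.79) and RPL7L1 (0.60) were higher in OVCAR8 as well, and RPL11 (-0.32) and RPS27 (-0.49) were lower.

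RPL39L was expressed in OVCAR8 and almost not in 5637. It had 13.6 to 18.1 CPM in the 11 OVCAR8 libraries used (25.9 in the omitted library), and 0 to 0.108 CPM in the 12 libraries of 5637. In parental control the 5637 libraries held 0, 0 and 2 counts of it. RPL10L was at most at 0.0265 CPM in any library, and RPL3L, known from striated muscle, at most at 0.763 CPM. RPL36A, a standard member, was at most at 0.0270 CPM. Like the other standard members near 0 its level is uncertain, because how reads were shared between near-identical copies is not given.

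**Figure D5:**
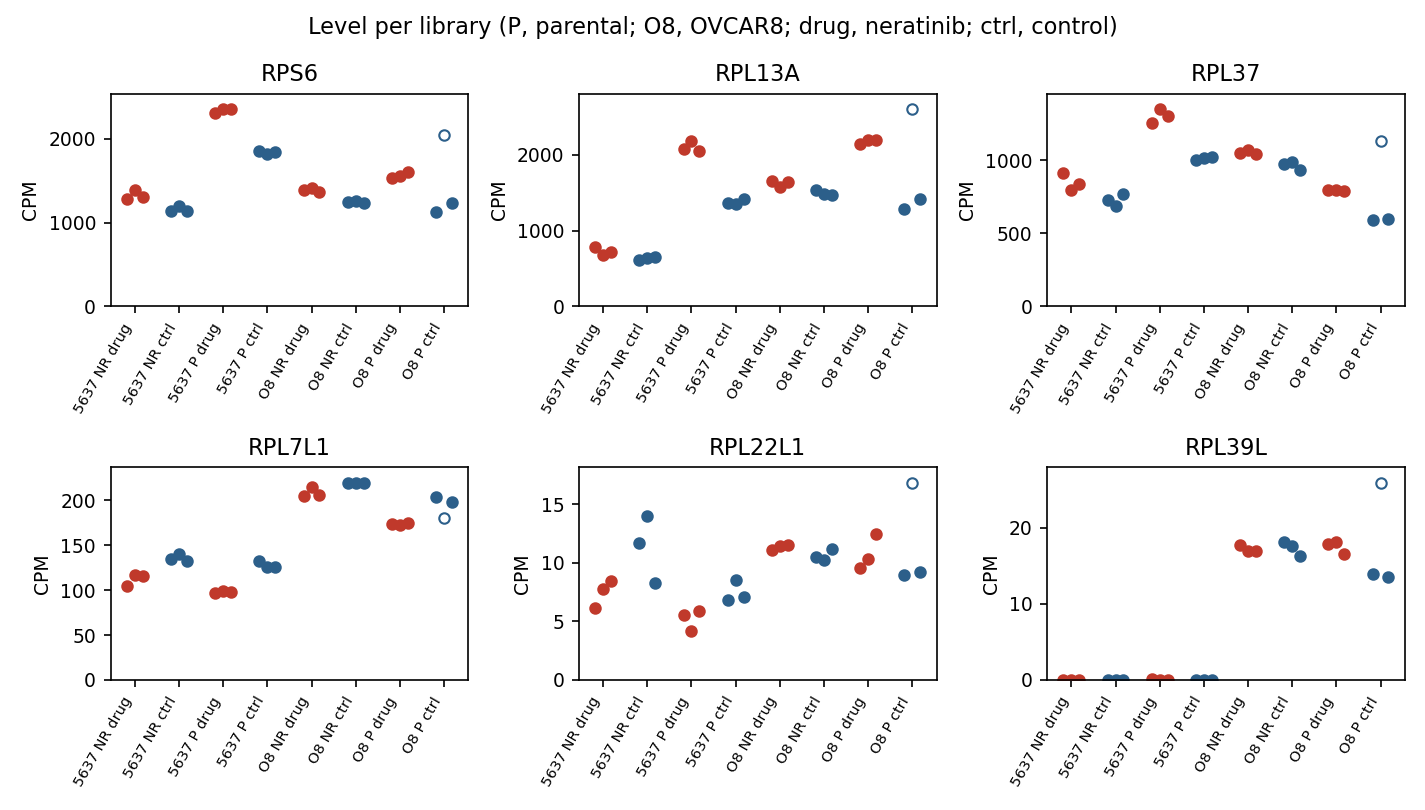
Level per library of 6 members in CPM, by group, with neratinib in red and control in blue. Open points are OVCAR8 parental control replicate 2. When that library is set aside, RPS6 and RPL13A are highest in parental cells with neratinib, and RPL37 is higher in NR than in parental cells of OVCAR8. RPL37 is lower in NR than in parental cells of 5637, RPL7L1 falls with the drug, and RPL39L is near 0 in 5637.

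Other genes of the translation machinery were counted from lists of textbook genes. Of 19 tested translation factors and other TOP-type genes outside the symbol rule, 9 were higher and 1 lower with neratinib in parental 5637, where 23.9% and 23.5% of all genes were, with a median of 0.18. In parental OVCAR8 16 were higher and 1 lower, where 24.3% and 24.9% of all genes were, with a median of 0.32. With OVCAR8 parental control replicate 2 these became 6 and 1 (median 0.15). EEF2, which moves the ribosome along, rose by log2 0.58 in parental 5637 and 0.77 in parental OVCAR8, and EEF1A1, which delivers transfer RNA, by 0.46 and 0.97. NPM1, a nucleolar chaperone, fell by 0.60 on the log2 scale in parental 5637 and by 0.59 in 5637 NR. In 5637 NR control against parental control 2 of these 19 were higher and 11 lower (median -0.43), where 28.4% and 28% of all genes were, among them EEF2 at -0.89, while EEF1A1 was higher at 0.28. In the same comparison of OVCAR8 5 were higher and 0 lower (median 0.06), where 11.4% of all genes were higher and 11.4% lower, and with OVCAR8 parental control replicate 2 none was called in edgeR's test (1 at an unadjusted p under 0.05). Start regions were found for 13 of these genes, and 11 (84.6%) had the TOP tract.

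Most of the listed genes that build ribosomes fell in parental cells given the drug. Of 29 ribosome biogenesis genes 0 were higher and 26 lower (89.7%) in parental 5637 (median -0.71), where 23.5% of all genes were lower. In parental OVCAR8 2 were higher and 26 lower (median -0.30), where 24.9% of all genes were lower, and with OVCAR8 parental control replicate 2 these became 1 and 19 (median -0.35), where 16.3% of all genes were lower. LYAR, a nucleolar factor, stood at -1.24 and -0.96, and NCL, nucleolin, at -0.99 in parental 5637. Among 74 mitochondrial ribosomal protein genes 0 were higher and 56 lower in parental 5637 (median -0.38), and 2 and 47 in parental OVCAR8 (median -0.25). With OVCAR8 parental control replicate 2 the OVCAR8 counts were 0 and 47 (median -0.49). The TOP tract stood at 2 of 24 biogenesis genes (8.33%) and at 5 of 67 mitochondrial ribosomal protein genes (7.46%). In NR cells of 5637 25 biogenesis genes were lower with the drug and 0 higher, where 21.1% and 18.4% of all genes were. In NR cells of OVCAR8 11 were lower and 1 higher, where 11.9% and 9.39% of all genes were, and with OVCAR8 parental control replicate 2 none was called in edgeR's test (5 at an unadjusted p under 0.05). Between NR and parental 5637 control libraries 13 biogenesis genes were higher (44.8%) and 6 lower (20.7%), and 19 mitochondrial ribosomal protein genes were higher (25.7%) and 18 lower (24.3%). The shares of the mitochondrial list, and the lower share of the biogenesis list, lie near those of all genes, which were 28.4% higher and 28% lower.

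Members with and without the tract can be set side by side. In parental OVCAR8, with the tract within 5 bases of the start, 40 of 45 members were higher with neratinib and 0 lower (median 0.29), and without it 8 of 14 were higher and 4 lower (median 0.12). Of all genes 24.3% were higher and 24.9% lower. The set without the tract includes the paralog-type genes RPL7L1, RPL26L1 and RPS27L, so tract and gene type are mixed. RPL7L1 and RPL26L1 are among its 4 lower members. With OVCAR8 parental control replicate 2, 0 of 45 members with the tract were called (median -0.11), and 0 of 14 without it were higher and 4 lower (median -0.29). In parental 5637 these counts were 18 higher and 3 lower of 45 (median 0.12), and 4 and 2 of 15 (median 0.04). Of all genes 23.9% were higher and 23.5% lower there, near the share of higher members without the tract. In 5637 NR control against parental control the medians were -0.40 with and -0.44 without the tract. The difference between members with and without the tract was not tested.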

How the data were processed

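RNA-seq counts per gene were measured in 24 libraries of 8 groups. The deposited table holds whole-number counts per gene, which the authors made from paired-end reads of stranded libraries with STAR 2.5.3a and featureCounts 1.15.2 on hg19, per the submitters' processing notes. The strand setting and the treatment of reads that match several genes are not given in the sources used here, so near-identical copies are uncertain.

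Library totals are in the report. After filterByExpr and TMM scaling, genes were tested with the quasi-likelihood test of edgeR 4.0.16 in R 4.3.3, with Benjamini-Hochberg adjustment over all genes tested and a threshold of 0.05. Each line was fitted alone, with 12 libraries of 5637 and 11 of OVCAR8, and 23 for comparisons of the lines. OVCAR8 parental control replicate 2 was left out for its length bias, and all its comparisons were repeated with it. CPM is per library total without TMM, and TPM uses the deposited gene lengths. Alternatives were DESeq2 1.42.0, other scalings and filters, a replicate block and leaving out each library. The code was tested on simulated data.

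Genes named are RPS6, RPLP0, RPL5, RPL11, RPS27, RPL22 and paralogs, and, in each comparison, up to 3 largest called rises and falls among members with at least 10 CPM whose groups did not overlap (overlap was not asked of interactions), and up to 2 of each from other lists. Some genes that this rule names are not reported here. Others, such as RPL4, RPL18 and RPL10, were chosen after their values were seen, and so was the neighbour window of 5 Mb. The members and lists were chosen with earlier results of these data known. Start sequences are from RefSeq (GRCh38.p14), and coordinates of genes are those of hg19.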

Additional observations from a re-analysis of the deposited data

Results flagged for a closer look

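Drug effects that differed between NR and parental cells, by edgeR's interaction test, are given here as NR minus parental on the log2 scale. In 5637 these were RPL28 (-0.63), RPL13A (-0.43), RPLP0 (-0.42) and RPL5 (-0.28). In OVCAR8 the differences were 0.28 for RPL26L1, 0.17 for RPL7L1, -0.54 for RPL13A, -0.54 for RPL13, -0.51 for RPL28, -0.22 for RPS6, -0.31 for RPLP0, -0.19 for RPL5, -0.42 for RPS27 and -0.33 for RPL39L. The OVCAR8 values rest on 2 parental control libraries.

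Between the parental lines the drug effect in OVCAR8 minus that in 5637 was 0.48 for RPL10A, 0.40 for RPL8, 0.31 for RPL3, -0.38 for RPL17, 0.25 for RPS27 and 0.82 for RPL22L1, with different doses in the lines.

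A row of RPL10 on a patch sequence, which the comparisons do not use, held at least 103 CPM in every OVCAR8 library and at most 0.324 CPM in 5637.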

How the results depend on the processing

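The number of members called changed in every OVCAR8 comparison when OVCAR8 parental control replicate 2 was in the fit. With it, the members called were 4 for the drug in parental cells (median -0.14), 0 for the drug in NR cells, 0 for NR against parental control (median -0.31), 2 with neratinib, 0 for the interaction (median 0.17), 47 between the lines (median 0.38) and 1 for the difference in drug effect (median -0.26). Single genes reversed with it: for the drug in parental OVCAR8, RPS6 stood at -0.0321, RPL5 at -0.0668, RPL11 at -0.16, RPL22 at -0.11, RPL13 at -0.0256 and RPL39L at -0.14; for NR against parental control, RPS24 at -0.10, RPL39L at -0.10, RPLP0 at -0.14, RPL5 at -0.19, RPS6 at -0.31, RPL11 at -0.26 and RPS27 at -0.43. In the interaction RPS6 stood at 0.17, RPLP0 at 0.000798, RPL5 at 0.13, RPS27 at 0.0375 and RPL39L at 0.11, between the lines RPL11 at 0.0484, and in the difference in drug effect RPS27 at -0.20 and RPS6 at -0.28. The drug in OVCAR8 NR cells and NR against parental cells with neratinib do not contain that library's group. Their medians were 0.04 and -0.14 without that library and 0.05 and -0.13 with it. The spread between libraries of a group, as edgeR put it, was 4.37% without it and 12.95% with it. The cause of the changes was not tested. Scaled by library totals, 52 members were called for the drug in parental 5637, 22 in 5637 NR (median 0.0665), 25 in OVCAR8 NR and 63 between the lines, and values that had not passed the test changed sign for the drug: RPL10A stood at 0.0449 in parental 5637, and RPLP0 at 0.0697 and RPL5 at 0.0181 in 5637 NR. Under library totals the median of all genes for the drug was also higher, at 0.13 in parental 5637 and 0.12 in 5637 NR. With no filter 17 members were called for the 5637 interaction and 66 between the lines. Leaving out 1 library at a time gave 7 to 28 calls for the drug in 5637 NR, 6 to 31 for the 5637 interaction, 8 to 22 for the drug in OVCAR8 NR, 10 to 43 for OVCAR8 NR against parental control, 56 to 67 between the lines and 5 to 24 for the difference in drug effect. Calls over all genes in these fits are not given, so the ranges are not read as particular to the members. Uncalled values that changed sign in these fits ranged from -0.0444 to 0.0649 (RPS27L, drug in parental 5637), from -0.108 to 0.000734 (RPLP0, drug in 5637 NR), from -0.0581 to 0.0231 (RPL26L1) and -0.0765 to 0.00471 (RPL18) for 5637 NR against parental control, from -0.268 to 0.0847 (RPL22L1, 5637 interaction), from -0.106 to 0.0278 (RPL13, drug in OVCAR8 NR), and from -0.0261 to 0.0748 (RPS27) and -0.0975 to 0.103 (RPL22) for OVCAR8 NR against parental control. For that comparison RPL22 stood at 0.000592 with a filter of 1 CPM in 3 libraries. Replicate numbers did not pair the libraries: deviations of libraries with the same number had median correlations of -0.01 in 5637 and 0.01 in OVCAR8. With the replicate block 27 members were higher and 5 lower for the drug in parental 5637, and RPL22 in OVCAR8 NR against parental control stood at 0.0140.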
